A study of Homo sapiens with 12 samples.

Results

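The NF-κB system was described here through 10 genes chosen by symbol. They were the 5 subunit genes NFKB1, NFKB2, REL, RELA and RELB and 5 genes grouped as inhibitors, NFKBIA, NFKBIB, NFKBIE, NFKBIZ and TNFAIP3. The grouping does not show how the product of a gene acted in these cells. All 10 were among the 19907 gene symbols of each library, and all 10 passed the filter of 10 reads summed over the 12 libraries, with 266 to 18825 reads per gene and library. MDA-MB-231 is an established human triple-negative breast cancer (TNBC) line that expresses the glucocorticoid receptor (GR). The wt-GR cells were a clone that CRISPR had left unedited, and the S134A-GR cells were clone #1, in which both alleles of GR carry alanine in place of a serine. Each line is therefore 1 clone, and a difference between clones cannot be told apart from an effect of the substitution. Both lines were starved for 18 h in IMEM with 1% DCC (charcoal-stripped serum) and were then kept for 6 h with vehicle or with TGFβ1 at 10 ng/mL and no GR ligand. Each of the 4 groups had 3 libraries, and nothing in the labels says that these came from separate cultures, so the p-values measure the spread between libraries only.

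The deposited values are normalized counts, reads divided by the size factor of the library, and the reads recovered from them numbered 56362036 to 129832227 per library. All of these totals lie above the average read number per sample given in the paper's methods, and the reason was not tested. The treatment was visible in both lines, since SMAD7, the feedback inhibitor of TGFβ signaling, rose by a log2 fold change of 1.19 in wt-GR libraries and 1.32 in S134A-GR libraries. NR3C1, the GR gene, was read in every group, with mean normalized counts of 11771 and 10775 in wt-GR libraries and 8815 and 8692 in S134A-GR libraries (vehicle and TGFβ1). A gene-level count cannot show the substitution itself. VIM, CD44 and EGFR were abundant, whereas the leukocyte markers PTPRC, CD79A, CD14 and LYZ had group means of 1.46 to 30.4 normalized counts. The luminal markers were split, since ESR1 had group means of 0.70 to 6.02 normalized counts and GATA3 of 712 to 1093. Of the endothelial markers, CDH5 had group means of 187 and 215 in wt-GR libraries against 19.0 and 28.7 in S134A-GR ones (vehicle and TGFβ1), a log2 fold change of −3.28 and −2.89, PECAM1 835 to 1358 and VWF 181 to 396, and their part in the results was not tested. In such bulk samples, fewer cells expressing a gene and less RNA per cell cannot be told apart.

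NF-κB factors are dimers of the subunits, and in resting cells IκB proteins hold most of them in the cytoplasm. Signals from tumor necrosis factor or interleukin-1 receptors activate IκB kinase, which marks IκB proteins for degradation, and the freed dimers bind κB sites in DNA. Several of the genes they switch on encode their own inhibitors, so the pathway limits itself, and GR is known for restraining NF-κB in many tissues. RELA encodes the main activating subunit and NFKB1 its usual partner. REL is a related activating subunit best known from lymphocytes, and RELB and NFKB2 form the dimer of the noncanonical pathway. NFKBIA, NFKBIB and NFKBIE encode the classical IκB proteins α, β and ε, NFKBIZ encodes the nuclear IκBζ, and TNFAIP3 encodes a ubiquitin-editing enzyme that silences receptor signaling.

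Because NF-κB is known to act on several of these genes through κB sites in their promoters, the κB-like stretches before their start sites are shown first. Promoter sequences came from RefSeq (GRCh38.p14), and the 250 bases before each start site were searched on both strands for the κB consensus and for a simpler overlapping form, GGGNNNTTCC. Of the members, 8 had promoter entries, with 14 entries in all, of which 9 held the κB consensus and 8 the simpler form. Each form was found in at least 1 entry of 7 of the 8 genes. Over all 35116 promoter entries of the same length, 6.88% held the κB consensus and 5.67% the simpler form. The RELA entries held neither form in this window, and RELB and NFKBIE were not among the entries. Matches at later start sites are not shown, which are those of NFKB2 at chr10:102395529-102395538 in an intron and chr10:102395684-102395693 in an exon, and that of NFKBIZ at chr3:101849275-101849284 in an exon. The lines below give 30 bases around the matches on the strand of the gene, 5′ to 3′, with the matching bases in capitals.
NFKB1, chr4:102501300-102501329, plus strand: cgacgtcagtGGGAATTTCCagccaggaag
NFKB2, chr10:102394462-102394491, plus strand: aaacgtcatGGGAATTCCCCcctccggggg
NFKB2, chr10:102394490-102394519, plus strand: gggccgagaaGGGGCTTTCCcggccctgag
REL, chr2:60881518-60881547, plus strand: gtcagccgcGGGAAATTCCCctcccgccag
NFKBIA, chr14:35404811-35404840, minus strand: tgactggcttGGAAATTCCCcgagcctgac
NFKBIB, chr19:38899932-38899961, plus strand: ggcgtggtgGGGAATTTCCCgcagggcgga
NFKBIZ, chr3:101827757-101827786, plus strand: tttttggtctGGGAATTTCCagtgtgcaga
TNFAIP3, chr6:137867188-137867217, plus strand: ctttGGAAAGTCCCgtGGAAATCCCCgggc
Of the matches shown, those of NFKB1, NFKBIA, NFKBIZ and TNFAIP3 lay outside the genes as GENCODE v44 draws them, just upstream. Those shown for NFKB2 and REL fell in an annotated exon of a longer transcript and that of NFKBIB in an intron. NFKBIA and TNFAIP3 read as the motif on the opposite strand only. REL, NFKBIB and the NFKB2 line at chr10:102394462-102394491 held overlapping matches on both strands, and that of REL to the κB consensus was on the opposite strand. TNFAIP3 alone among the lines shown held a pair of separate matches within 30 bases. A match is a description of letters and does not show that a factor was bound there.

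Levels were compared between genes only per length, as normalized count per kb of all annotated exons merged (GENCODE v44, hg38). RELA stood highest in every group, with a vehicle value of 2233 ± 43.9 per kb (SD, n = 3) in wt-GR libraries and 1744 ± 43.2 in S134A-GR libraries. Behind it, NFKBIA (1450 ± 122 per kb) and NFKB2 (1209 ± 50.3) held the next places in wt-GR cells under vehicle. In S134A-GR cells under vehicle NFKB2 had 1489 ± 17.8 per kb and NFKBIA 1445 ± 41.1, but per kb of the MANE Select transcript NFKBIA stayed ahead, with 3146 ± 89.5 against 2756 ± 33.0. NFKBIB, NFKBIE, NFKB1, NFKBIZ and RELB followed in wt-GR cells under vehicle, at 854, 654, 394, 344 and 338 per kb, and libraries of NFKBIZ and RELB overlapped. TNFAIP3 (66.5 ± 0.75 per kb) and REL (62.0 ± 9.63) were lowest and overlapped in that group. In S134A-GR cells they were apart, with TNFAIP3 at 86.7 ± 1.95 and REL at 43.0 ± 1.30 per kb under vehicle. Which transcripts were counted is not stated, and merged exons are long for NFKB1 (15.7 kb, against 4.06 kb for its MANE Select transcript). Per kb of the MANE Select transcript, a length chosen after the merged lengths were seen, NFKB1 in wt-GR cells under vehicle had 1522 ± 30.7 and stood ahead of NFKBIE (720 ± 46.7).

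**Figure D1:**
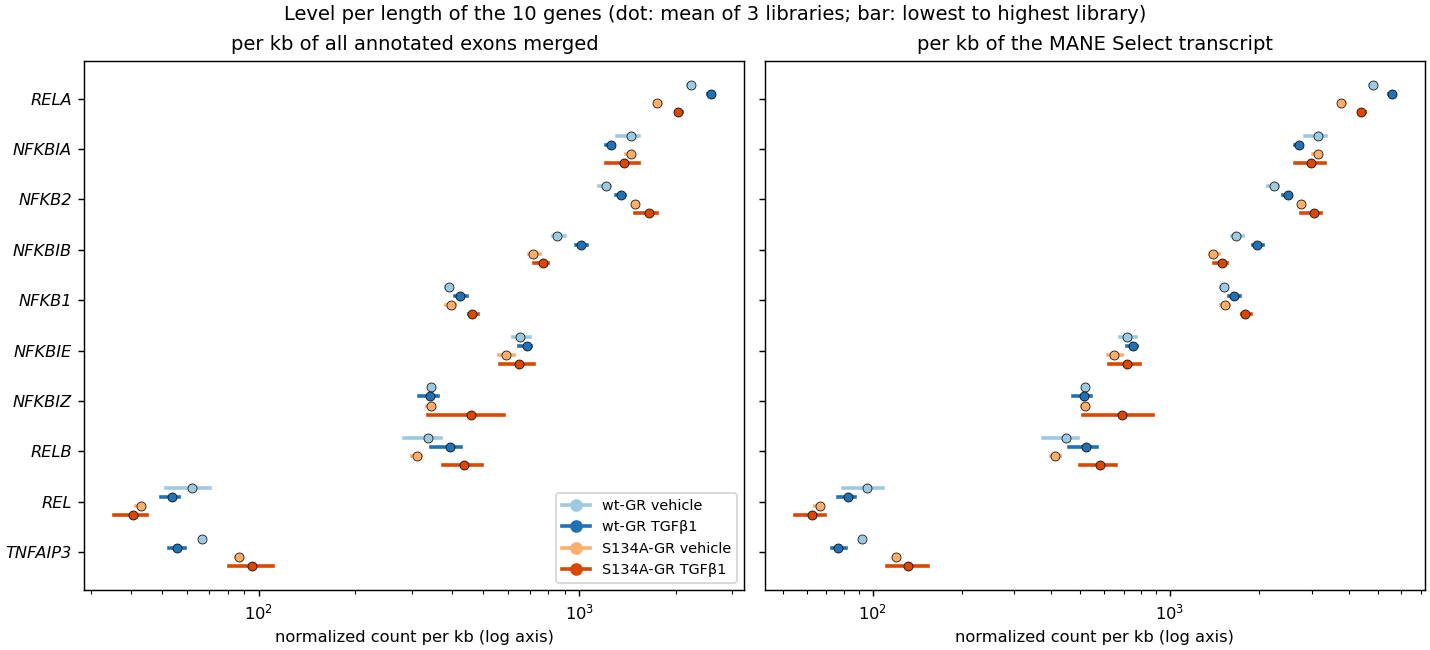
Normalized count per kb (log axis) of the 10 genes in the 4 groups, per kb of all exons merged (left) and of the MANE Select transcript (right); dots are means of 3 libraries and bars run from the lowest to the highest library. RELA is highest and REL and TNFAIP3 lowest with either length, while NFKB1 moves from 394 to 1522 per kb in wt-GR cells under vehicle.

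The first question was how the lines differed before any cytokine was given. Under vehicle, S134A-GR cells had less RELA, REL and NFKBIB and more NFKB2 and TNFAIP3 than wt-GR cells, and the other 5 genes did not pass the test. The changes were modest, between 0.70-fold and 1.30-fold. RELA had normalized counts of 12286, 11913 and 12361 in wt-GR libraries and 9789, 9386 and 9376 in S134A-GR libraries. Every S134A-GR library lay below every wt-GR library, and the log2 fold change was −0.36 ± 0.03 (SE, limma adjusted p = 7.34e-07). REL, the other activating subunit, had 1204, 1101 and 881 in wt-GR libraries and 751, 712 and 749 in S134A-GR libraries. The groups again did not overlap, although the wt-GR libraries were spread widely, and the log2 fold change was −0.51 ± 0.11 (limma adjusted p = 0.0012).

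NFKB2 went the other way, with 6431, 6956 and 6867 normalized counts in wt-GR libraries and 8425, 8266 and 8242 in S134A-GR libraries under vehicle. All 3 S134A-GR libraries were higher, by a log2 fold change of 0.30 ± 0.05 (limma adjusted p = 0.00028). RELB, its partner in the noncanonical dimer, had 849, 1107 and 1081 in wt-GR libraries and 962, 928 and 903 in S134A-GR libraries, which overlapped (log2 fold change −0.11, 95% interval −0.36 to 0.14). NFKB1 differed by a log2 fold change of 0.02 (95% interval −0.08 to 0.11), with mean normalized counts of 6170 ± 124 in wt-GR libraries and 6236 ± 206 in S134A-GR libraries.

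Among the inhibitors, TNFAIP3 had 433, 424 and 429 normalized counts in wt-GR libraries and 553, 549 and 573 in S134A-GR libraries under vehicle. The libraries were tight within each line and apart between them, with a log2 fold change of 0.38 ± 0.10 (limma adjusted p = 0.0059). NFKBIB had 1924, 1929 and 2099 in wt-GR libraries and 1746, 1622 and 1629 in S134A-GR libraries. Each S134A-GR library was lower, and the log2 fold change was −0.25 ± 0.06 (limma adjusted p = 0.0019). NFKBIA, a rapid target of NF-κB itself, had 4450, 5096 and 5222 in wt-GR libraries and 5004, 4964 and 4745 in S134A-GR libraries. These libraries overlapped, and the 95% interval of the log2 fold change was −0.16 to 0.16. NFKBIZ means were 2033 ± 29.6 in wt-GR libraries and 2037 ± 51.2 in S134A-GR libraries (95% interval −0.28 to 0.29), and NFKBIE means were 1688 ± 109 and 1522 ± 87.4 (95% interval −0.32 to 0.02).

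**Figure D2:**
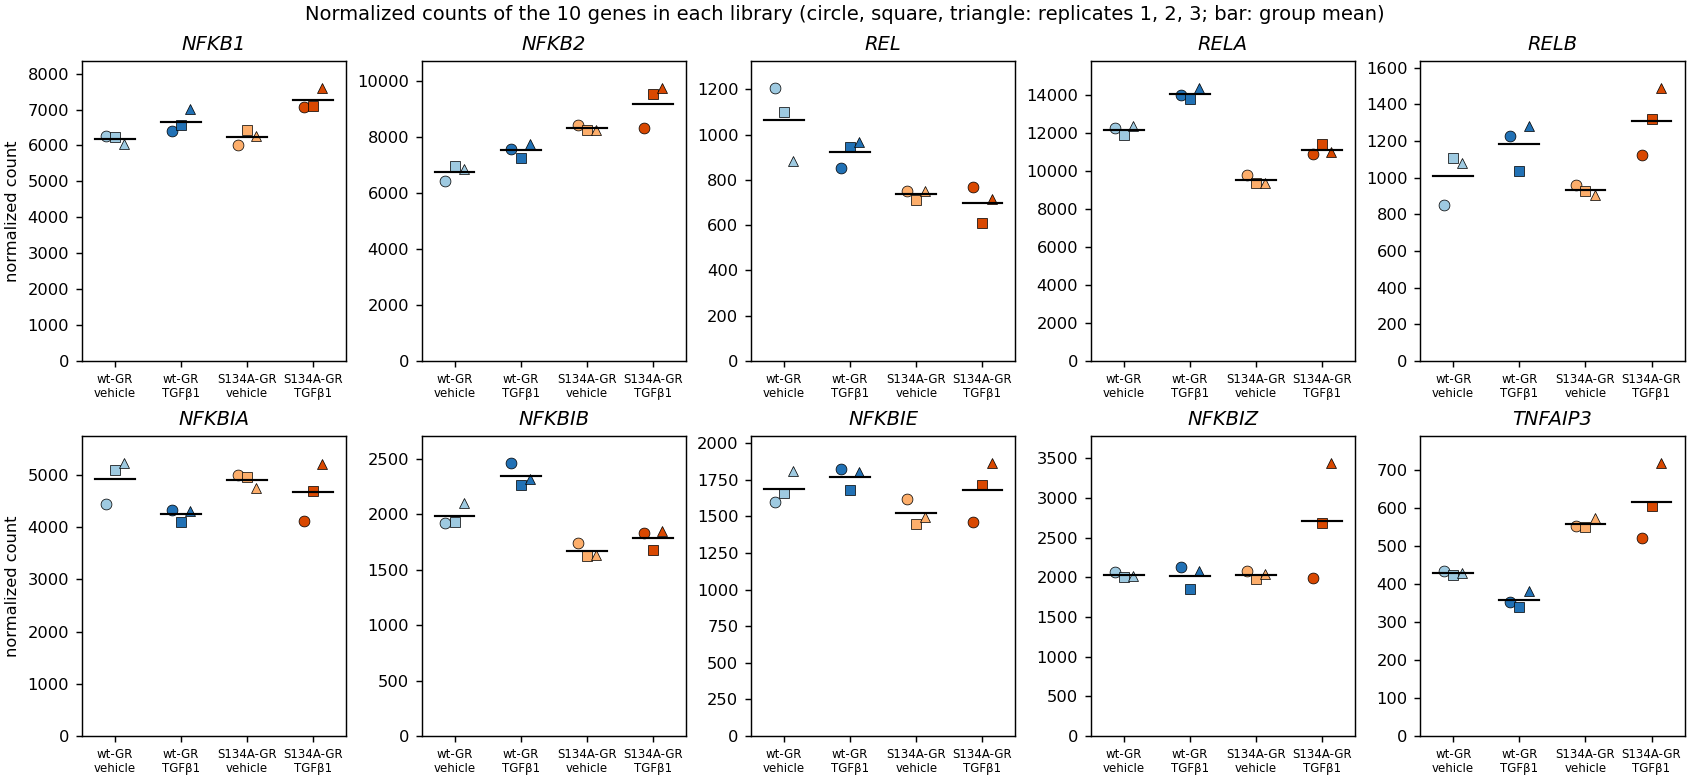
Normalized counts (linear axes from 0) of the 10 genes in the 12 libraries, with circles, squares and triangles for replicates 1, 2 and 3 and a bar for the mean of each group. RELA, REL and NFKBIB are lower and NFKB2 and TNFAIP3 higher in S134A-GR cells under either treatment, and NFKBIZ is spread from 1997 to 3436 in S134A-GR cells under TGFβ1.

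These calls have to be read against a wide difference between the clones. Under vehicle 25.0% of the 18579 genes tested had a higher and 26.5% a lower level in S134A-GR cells at an FDR under 0.05, against 2 and 3 of the 10 members. Among the 12468 genes with a mean normalized count of at least 100, the shares were 30.6% and 34.4%. The stricter rule, which also asks that the absolute log2 fold change reach 1, was met by 9.51% of genes and by 0 members. Groups did not overlap for 5 of 10 members and for 57.3% of genes. The median log2 fold change of the members was −0.06, and that of all genes was 0.02. The share of members called was near the share of all genes called.

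Under TGFβ1 the lines differed in the same 5 genes and in NFKB1 and NFKBIZ as well. RELA had 14003, 13785 and 14365 normalized counts in wt-GR libraries and 10884, 11415 and 11022 in S134A-GR libraries, and the S134A-GR libraries were again all lower (log2 fold change −0.34 ± 0.03, limma adjusted p = 1.34e-06). TNFAIP3 had 353, 340 and 381 in wt-GR libraries and 520, 605 and 717 in S134A-GR libraries. All S134A-GR libraries were above all wt-GR libraries, and the log2 fold change of 0.77 ± 0.10, or 1.70-fold, was the largest of any member in any comparison (limma adjusted p = 2.25e-05). NFKB2 differed by a log2 fold change of 0.29 ± 0.05, REL by −0.40 ± 0.11 and NFKBIB by −0.39 ± 0.06, and libraries did not overlap for any of these 3.

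The calls of NFKB1 and NFKBIZ under TGFβ1 were less firm. NFKB1 had 6404, 6559 and 7002 normalized counts in wt-GR libraries and 7078, 7098 and 7589 in S134A-GR libraries, a log2 fold change of 0.12 ± 0.04 (limma adjusted p = 0.028). NFKBIZ had 2135, 1860 and 2076 in wt-GR libraries and 1997, 2689 and 3436 in S134A-GR libraries. These libraries overlapped, since replicate 1 of S134A-GR cells lay within the wt-GR range, and the log2 fold change was 0.39 ± 0.13 (limma adjusted p = 0.026). Without replicate 3 of S134A-GR cells under TGFβ1, the log2 fold changes were 0.092 for NFKB1 and 0.20 for NFKBIZ, and neither passed (limma adjusted p = 0.12 and 0.13). NFKB1 was also lost without replicate 1 or 2 of wt-GR cells under TGFβ1 (limma adjusted p = 0.12 and 0.081), and NFKBIZ without replicate 2 of either line under TGFβ1 (0.099 for wt-GR and 0.066 for S134A-GR). NFKBIA, not called with all libraries (log2 fold change 0.13), passed without replicate 1 of S134A-GR cells under TGFβ1 (0.22, limma adjusted p = 0.014).

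The median log2 fold change of the members between the lines under TGFβ1 was 0.13, against 0.01 over all genes. Higher calls held for 4 of 10 members and 23.1% of all genes, and lower calls for 3 of 10 members and 25.7% of all genes. Among genes with a mean normalized count of at least 100, the shares were 29.1% higher and 33.1% lower. Groups did not overlap for 6 of 10 members and for 55.6% of genes. The stricter rule was met by 8.46% of genes and again by 0 members.

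**Figure D3:**
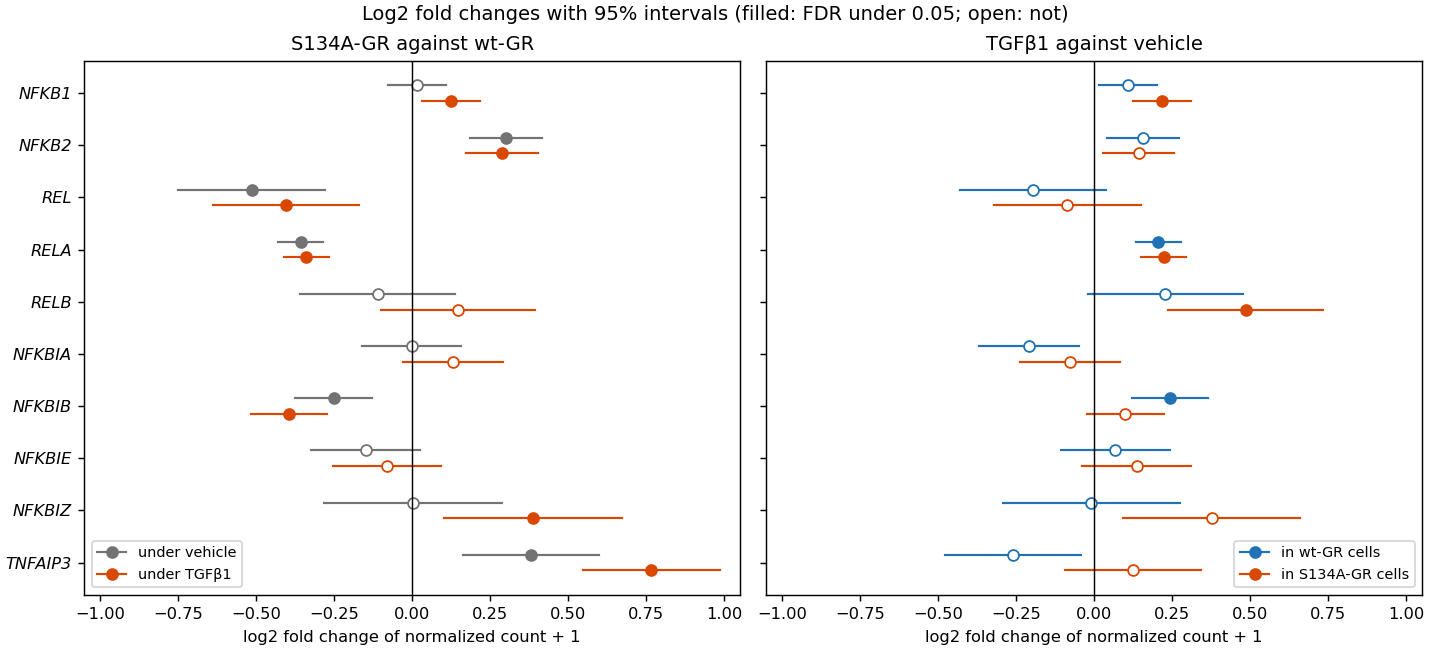
Log2 fold changes of normalized count + 1 with 95% intervals for S134A-GR against wt-GR cells (left) and TGFβ1 against vehicle (right); filled dots passed an FDR under 0.05. Between the lines RELA, REL and NFKBIB lie to the left and NFKB2 and TNFAIP3 to the right under both treatments, and TGFβ1 moved RELA to the right in both lines, by 0.21 and 0.22.

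Because each line is 1 clone, every member was set beside the 20 tested genes nearest to it on each side of its chromosome. Of the 18579 symbols tested, 16428 (88.4%) had 1 position in the annotation. The stretch that held the neighbours differed between members, from 0.90 megabases for RELA to 13.4 megabases for NFKB1. REL (chr2:60881491-60931612) had a log2 fold change of −0.51 between the lines under vehicle, and its 40 neighbours had a median of −0.56, with 34 of the 40 below 0. NFKB2 (chr10:102394110-102402524) had 0.30 beside a median of 0.31. RELA (chr11:65653599-65663090) had −0.36 beside −0.24, with 31 of its 40 neighbours below 0. Each of these 3 subunit genes lay between the quartiles of its neighbours, so their differences were of the size seen in the genes around them.

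TNFAIP3 and NFKBIB lay outside the quartiles of their neighbours. TNFAIP3 (chr6:137867214-137883314) had a log2 fold change of 0.38 under vehicle where its neighbours had a median of −0.30 and quartiles of −0.57 and −0.07. Under TGFβ1 the values were 0.77 for TNFAIP3 and −0.15 for the median of its neighbours. NFKBIB (chr19:38899700-38908893) had −0.25 under vehicle beside a median of 0.05 and a lower quartile of −0.17. Under TGFβ1 it had −0.39 beside a median of −0.06 and a lower quartile of −0.25. NFKBIZ (chr3:101827991-101861022) matched its neighbours under vehicle (0.00 against 0.01) and lay above them under TGFβ1 (0.39 against −0.03). NFKB1, RELB, NFKBIA and NFKBIE lay 0.03 to 0.24 from the medians of their neighbours under vehicle. DNA copy number was not measured here, and its part in these differences was not tested.

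**Figure D4:**
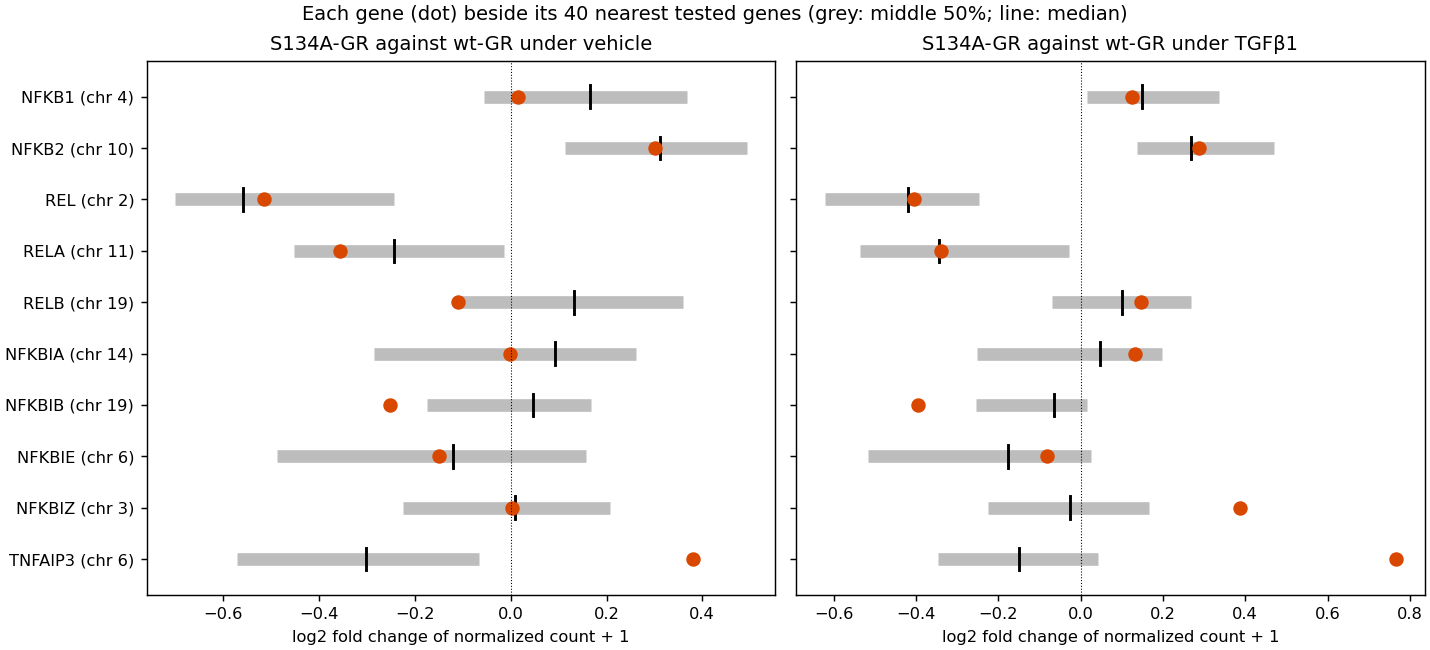
Log2 fold change between the lines of each member (dot) beside its 40 nearest tested genes, whose median (line) and middle 50% (grey bar) are shown for vehicle (left) and TGFβ1 (right). REL, NFKB2 and RELA lie inside the grey bars, whereas TNFAIP3 lies to the right of its bar at 0.38 and 0.77 and NFKBIB to the left of its bar at −0.25 and −0.39.

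The second question was how TGFβ1 moved these genes within each line. In wt-GR cells RELA and NFKBIB rose and no member passed the test in the other direction. RELA went from 12286, 11913 and 12361 normalized counts under vehicle to 14003, 13785 and 14365 under TGFβ1, with no overlap (log2 fold change 0.21 ± 0.03, limma adjusted p = 0.00049). NFKBIB went from 1924, 1929 and 2099 to 2458, 2266 and 2317, also with no overlap (log2 fold change 0.24 ± 0.06, limma adjusted p = 0.0073). The mean of NFKB2 was 6752 ± 281 under vehicle and 7522 ± 248 under TGFβ1, and its adjusted p of 0.053 in limma just missed the threshold (log2 fold change 0.16 ± 0.05). NFKB2 passed in DESeq2 (adjusted p = 0.028), with TMM scaling (0.040) and with the filterByExpr filter (0.049), and not in edgeR (0.056). In limma it passed without replicate 1 or 3 of S134A-GR cells under TGFβ1 (adjusted p = 0.0098 and 0.042), and its adjusted p over the alternatives ran from 0.0098 to 0.175. REL passed as lower, at −0.32 on the log2 scale, once replicate 3 of the wt-GR vehicle group was left out (limma adjusted p = 0.026).

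The feedback inhibitors NFKBIA and TNFAIP3 had lower values under TGFβ1 in wt-GR cells, and neither passed the test. NFKBIA had 4450, 5096 and 5222 normalized counts under vehicle and 4324, 4105 and 4313 under TGFβ1, and the groups did not overlap (log2 fold change −0.21 ± 0.07, limma adjusted p = 0.062). TNFAIP3 had 433, 424 and 429 under vehicle and 353, 340 and 381 under TGFβ1, likewise with no overlap (log2 fold change −0.26 ± 0.10, limma adjusted p = 0.088). DESeq2 on the recovered reads called NFKBIA (adjusted p = 0.024) and not TNFAIP3. Both genes passed in limma when replicate 1 or replicate 3 of S134A-GR cells under TGFβ1, which share the estimate of the spread, was left out, and NFKBIA did without replicate 1 of the wt-GR vehicle group (limma adjusted p = 0.016).

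In S134A-GR cells RELA, NFKB1 and RELB rose under TGFβ1. RELA went from 9789, 9386 and 9376 normalized counts to 10884, 11415 and 11022, a log2 fold change of 0.22 ± 0.03 (limma adjusted p = 0.00028). NFKB1 went from 6015, 6423 and 6271 to 7078, 7098 and 7589 (log2 fold change 0.22 ± 0.04, limma adjusted p = 0.0025). RELB went from 962, 928 and 903 to 1125, 1323 and 1488 (log2 fold change 0.49 ± 0.12, limma adjusted p = 0.0087). In each of these 3 subunit genes all TGFβ1 libraries were above all vehicle libraries. No gene grouped as an inhibitor passed the test. The largest value among them was that of NFKBIZ, with 2083, 1982 and 2045 under vehicle and 1997, 2689 and 3436 under TGFβ1 (log2 fold change 0.38 ± 0.13, limma adjusted p = 0.065). NFKBIZ passed in edgeR (adjusted p = 0.044), in DESeq2 (adjusted p = 0.041), and in limma without replicate 1 of S134A-GR cells under TGFβ1, where its log2 fold change was 0.58 (adjusted p = 0.00038). Without that library NFKB2 and NFKBIE passed as well (limma adjusted p = 0.0038 and 0.041), and NFKB2 also passed in DESeq2 (adjusted p = 0.038).

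Against all genes, 2 of 10 members were called higher in wt-GR cells, where 11.2% of genes were, and 0 of 10 were called lower, where 9.82% were. In S134A-GR cells 3 of 10 were called higher, beside 10.0% of genes, and 0 of 10 lower, beside 8.69%. Among genes with a mean normalized count of at least 100, 15.6% were higher and 13.2% lower in wt-GR cells. The shares of those genes in S134A-GR cells were 14.3% and 11.7%. At an unadjusted p under 0.05 in limma, the wt-GR line had 2 lower members and the S134A-GR line 0. In edgeR 0 members were called lower in either line, and in DESeq2 1 in wt-GR libraries and 0 in S134A-GR libraries. Groups did not overlap for 6 of 10 members in wt-GR cells (33.9% of genes) and for 3 of 10 in S134A-GR cells (35.6% of genes). The 6 were NFKB1, NFKB2, RELA and NFKBIB, which were higher, and NFKBIA and TNFAIP3, which were lower. The stricter rule was met by 0 members in either line and by 2.29% (wt-GR) and 1.66% (S134A-GR) of genes. The medians of the members were 0.09 in wt-GR libraries and 0.14 in S134A-GR libraries, beside 0.00 and −0.01 over all genes.

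No member responded differently to TGFβ1 in the lines by the test of the difference itself. At an FDR under 0.05, 0.167% of genes had a higher and 0.248% a lower response in S134A-GR cells, and 0 of 10 members were called by limma, edgeR or DESeq2. At an unadjusted p under 0.05 in limma there was 1, TNFAIP3, whose response was higher in S134A-GR cells by a log2 difference of 0.39 (95% interval 0.08 to 0.69, limma adjusted p = 0.41). NFKBIZ had a difference of similar size but a wider interval, 0.38 with −0.02 to 0.79. The response of RELA differed by 0.02, with a narrow interval of −0.08 to 0.12. NFKBIA differed by 0.13 (−0.09 to 0.36) and RELB by 0.26 (−0.09 to 0.61). The 4 line and treatment comparisons share libraries, so their values are not independent of each other.

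The libraries of S134A-GR cells under TGFβ1 were the most widely spread for several members. The coefficient of variation of NFKBIZ was 26.6% in that group and 1.45% to 7.15% in the others. TNFAIP3 had 16.05% there against 1.12% to 5.85%, and NFKBIA 11.7% against 2.85% to 8.41%. Replicate 3 was the highest of the 3 libraries for 8 of 10 members and replicate 1 the lowest for 8 of 10. Over the 12468 genes with a mean of at least 100, replicate 3 was highest for 28.7% and replicate 1 lowest for 31.6%. RELA and REL were the exceptions to the first count, and NFKBIB and REL to the second. In wt-GR cells under TGFβ1 replicate 2 was the lowest for 8 of 10 members and for 36.1% of the 12468 genes. In S134A-GR cells under vehicle replicate 1 was the highest for 8 of 10 members and for 29.7% of the 12468 genes. Which feature of these libraries goes with this order was not tested.

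The other genes of the pathway are given beside the shares of all genes between the lines under vehicle, 25.0% higher and 26.5% lower (30.6% and 34.4% among genes with a mean of at least 100). Of 26 genes listed as receptors, adaptors and kinases, under vehicle S134A-GR cells had 6 higher and 13 lower, with a median log2 fold change of −0.12. The list does not sort its genes by whether their products pass on or restrain the signal. BIRC3 (−1.40 ± 0.11) and BIRC2 (−0.89 ± 0.04), which lie next to each other on chromosome 11, and the receptor gene CD40 (−0.37 ± 0.04) were lower. BIRC3 is also on the list of target genes and is counted in both lists. Chromosome neighbours were compared for the members only, and not for the genes of these lists. The kinase genes IKBKE (−0.47) and RIPK1 (−0.29) were lower too, and IRAK1 (0.24) was higher. Of 12 other negative regulators and atypical IκB genes, 3 were higher and 5 lower, with a median of −0.18. The deubiquitinase gene CYLD was higher by a log2 fold change of 0.57 ± 0.05 and the atypical IκB gene NFKBID by 0.81 ± 0.17. RNF11, TAX1BP1, TNIP1 and COMMD1, whose products act with or beside the TNFAIP3 enzyme or on RELA, were lower (−0.50, −0.24, −0.23 and −0.25). TNIP2, a relative of TNIP1, went the other way and was higher by 0.17 ± 0.06 (limma adjusted p = 0.025).

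Known target genes of NF-κB held the largest differences between the lines among the lists. Of 30 listed, 28 were tested (TNF and LTB were not analysed here), and under vehicle S134A-GR cells had 5 higher and 17 lower, with a median log2 fold change of −0.40, beside 25.0% and 26.5% of all genes and a median of 0.02. ICAM1, an adhesion molecule, had mean normalized counts of 455 in wt-GR libraries and 31.0 in S134A-GR libraries, a log2 fold change of −3.83 ± 0.15. BCL2A1, a survival gene, differed by −2.48 ± 0.16, IL1B by −0.81 ± 0.11, SDC4 by −0.75 ± 0.04 and SOD2 by −0.42 ± 0.05, each with an adjusted p under the threshold in limma. These genes were named for the lowest p, and all were lower. Target genes with higher means in S134A-GR than in wt-GR vehicle libraries included CXCL2 (263 against 189), RIPK2 (2915 against 2428) and IL1A (387 against 307). The highest log2 fold change on the list was 0.48. Among the members the line differences under vehicle ran from −0.51 for REL to 0.38 for TNFAIP3. Under TGFβ1 4 of the 28 were higher and 14 lower, with a median of −0.29, where 23.1% of all genes were higher and 25.7% lower. With 1 library left out, the higher target genes under vehicle numbered 2 to 5 and the lower ones 15 to 17. The higher ones were 2 without replicate 1 of the wt-GR vehicle group, and 3 without replicate 2 of that group or replicate 1 of the S134A-GR vehicle group.

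**Figure D5:**
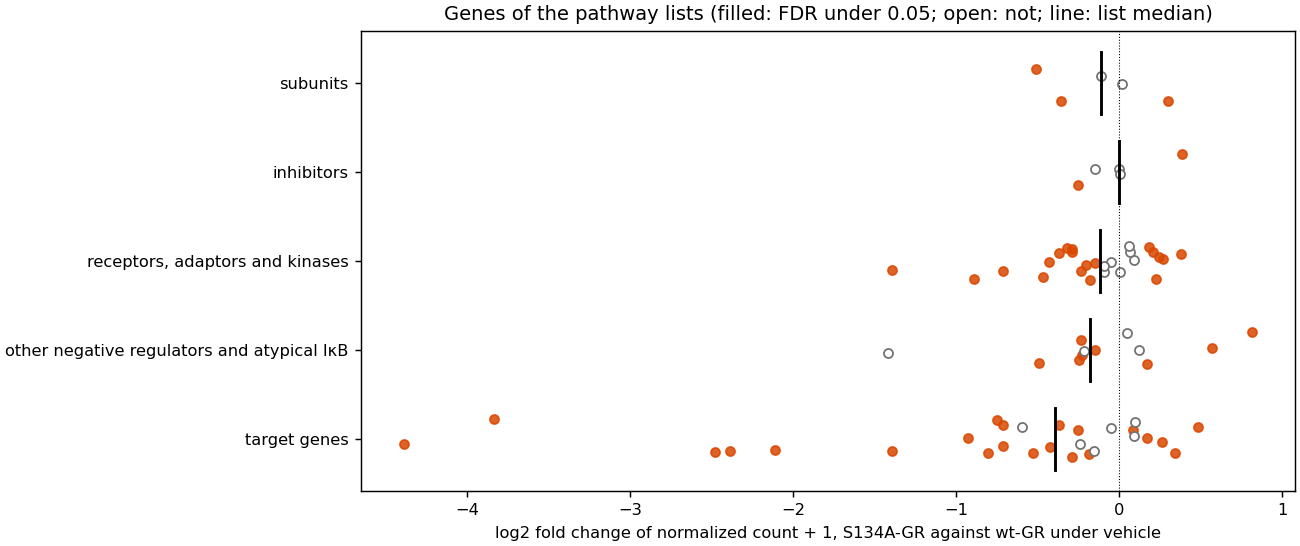
Log2 fold changes of S134A-GR against wt-GR cells under vehicle for subunits, inhibitors, receptors with adaptors and kinases, other negative regulators with atypical IκB genes, and target genes. Filled dots passed an FDR under 0.05 and lines mark list medians. The members stay between −0.51 and 0.38, whereas target genes have the lowest median, −0.40, and reach −3.83 for ICAM1. The lowest value, −4.39, is that of VCAM1, with means of 32.6 normalized counts in wt-GR and 0.65 in S134A-GR libraries. That S134A-GR mean is so low that the size of the value depends on the count of 1 added before the log.

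The counts of pathway genes that TGFβ1 moved are set beside the shares of all genes called higher and lower, 11.2% and 9.82% in the wt-GR line and 10.0% and 8.69% in the S134A-GR line. Among genes with a mean of at least 100 the shares were 15.6% and 13.2% in the wt-GR line and 14.3% and 11.7% in the S134A-GR line. Of the 28 target genes, 4 rose and 5 fell in wt-GR cells, and the S134A-GR line had 5 that rose and 1 that fell. With 1 library left out, the wt-GR counts were 2 to 5 for genes that rose and 3 to 5 for genes that fell. The lowest count of genes that rose, 2, came without replicate 1 or 2 of either wt-GR group, and the lowest count of genes that fell, 3, without replicate 2 of either wt-GR group or replicate 3 under TGFβ1. Without replicate 1 of S134A-GR cells under TGFβ1, 8 target genes rose in that line. GADD45B, a stress gene that TGFβ also induces, rose by a log2 fold change of 0.85 ± 0.04 in wt-GR libraries and 0.80 ± 0.04 in S134A-GR libraries, and TNFAIP2 fell by 0.40 and 0.49 on the log2 scale. BIRC3 fell by 0.72 in wt-GR cells, and SDC4 rose by 0.19 in S134A-GR cells. Of the 26 receptors, adaptors and kinases, 5 rose and 4 fell in wt-GR cells, and 7 rose and 4 fell in S134A-GR cells. The latter counts were 4 to 9 and 2 to 4 with 1 library left out, with 4 that rose and 2 that fell without replicate 3 of S134A-GR cells under either treatment. The count that fell was also 2 without replicate 1 of either treatment or replicate 2 of the vehicle group of that line. IL1R1, the interleukin-1 receptor gene, fell by 0.76 and 0.47 in wt-GR and S134A-GR cells. CD40 rose by 0.30 in wt-GR and 0.19 in S134A-GR cells, TNFRSF12A by 0.43 and 0.29, and TRAF3 by 0.21 and 0.31. All of these passed in limma. BIRC2 rose by 0.21 in S134A-GR cells, and its value of 0.07 in wt-GR cells was not called.

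Among the 12 other negative regulators and atypical IκB genes, 1 rose and 1 fell in wt-GR cells, and 2 rose and 1 fell in S134A-GR cells. These counts moved by at most 1 with 1 library left out. ZC3H12A, whose product degrades inflammatory transcripts, rose by 0.77 ± 0.16 and 0.82 ± 0.16 in wt-GR and S134A-GR cells. BCL3, an atypical IκB gene, fell by 0.45 and 0.34. Its call in S134A-GR cells was lost in limma without replicate 1 of that line under either treatment. It was also lost when only the S134A-GR libraries were fitted. TAX1BP1 rose by 0.15 in S134A-GR cells, and its value of 0.13 in wt-GR cells was not called (limma adjusted p = 0.055). None of the genes on the 3 lists differed in response by limma or edgeR, and BIRC3 and CSF2 did by DESeq2.

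For NFKBIA, NFKB2 and TNFAIP3 the genes with the most similar profile were sought by Pearson's r of the log2 values over the 12 libraries, among 12467 others with a mean of at least 100. For NFKBIA these were TRAF4 (r = 0.88), TARBP1 (0.87) and FNTB (0.87). For NFKB2 they were POMT2, HIP1R and MIR210HG, with r of 0.98 each. For TNFAIP3 they were CSF3, TLE1 and INCA1, with r of 0.96 each. The libraries fall into 4 groups, so these values describe group patterns as well as single libraries.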

How the data were processed

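RNA-seq of 12 libraries was used, 3 per group. Per the paper's methods, the authors used Trimmomatic for trimming, HISAT2 for alignment to hg38, featureCounts for counts per gene and DESeq2 for normalization (1.22.2 in the submitters' processing notes). The annotation and strand setting are not given in the sources used here, so reads of overlapping genes cannot be separated. SIRT2 shares 1.72% of the exonic bases of NFKBIB, NXPE3 3.29% of those of NFKBIZ, and a long noncoding RNA 33.3% of those of REL. The deposited signal is a normalized count, and 100% of values were whole multiples of 1 read per library within 0.01 reads.

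Log2 of the normalized count plus 1 was fitted with limma 3.58.1 (R 4.3.3), 4 group means and a trend, with Benjamini-Hochberg adjustment over 18579 genes. Fold changes on this scale understate the change of low genes. An exact permutation test of 3 against 3 cannot go below 0.1 and was not run. With edgeR 4.0.16 on the recovered reads, under vehicle S134A-GR cells had 4494 genes higher and 4958 lower, where limma gave 4651 and 4918. Other alternatives were DESeq2 1.42.0, TMM scaling, pseudocounts of 0.5 and 16, other filters, a replicate block, only the groups compared, and each library left out.

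The members and lists were chosen with earlier results of these data known. All members were named. From each pathway list, genes with the lowest p under an FDR of 0.05 and a mean of at least 100 were named, up to 6 between the lines under vehicle and up to 3 per TGFβ1 comparison. CSF2, TNIP2, VCAM1, CXCL2, RIPK2, IL1A and the exceptions named for small counts were chosen after their values were seen.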

Additional observations from a re-analysis of the deposited data

How the results depend on the processing

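All 17 single-gene calls of the members kept their direction in every alternative run, and 15 of the 17 kept their side of the threshold, the exceptions being NFKB1 and NFKBIZ between the lines under TGFβ1. When only the groups compared were fitted, members higher in S134A-GR cells under TGFβ1 numbered 2, in place of 4. With DESeq2, TGFβ1 lowered 1 member in wt-GR cells where limma gave 0, and raised 5 in S134A-GR cells where limma gave 3. When 1 library was left out, those 3 counts ranged from 2 to 5, from 0 to 2 and from 3 to 6. The causes were not tested.

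Values near 0 that were not called changed sign. Between the lines under vehicle, NFKBIA was 0.015 with TMM scaling and NFKBIZ −0.0032 with DESeq2. With 1 library left out, the ranges were −0.0064 to 0.041 for NFKB1, −0.073 to 0.042 for NFKBIA and −0.014 to 0.022 for NFKBIZ under vehicle, and −0.16 to 0.015 for NFKBIE under TGFβ1. For the response to TGFβ1 they were −0.049 to 0.050 for NFKBIZ in wt-GR cells. In the other line they were −0.16 to 0.0093 for REL and −0.16 to 0.012 for NFKBIA. For the difference in response they were −0.057 to 0.057 for NFKB2, −0.0024 to 0.038 for RELA and −0.0091 to 0.16 for NFKBIE.

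Same-numbered libraries, taken as deviations from group means, correlated with r from −0.15 to 0.15 and a mean of 0.00089. Libraries with different numbers had r from −0.20 to 0.22 and a mean of −0.00032. The deviations of 3 libraries sum to 0 within a group, which ties these values to each other. They cannot settle whether equal numbers mark a shared culture, and the labels do not say. With a replicate block the members higher and lower were 2 and 3 between the lines under vehicle, 4 and 3 under TGFβ1, 2 and 0 for TGFβ1 in wt-GR cells, 3 and 0 for TGFβ1 in S134A-GR cells, and 0 and 0 for the difference in response. Genes that differed in response over all 18579 numbered 77 in limma, 58 with the block, 78 in edgeR and 208 in DESeq2. With 3 libraries per group, a shift whose printed interval includes 0 was not resolved.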
